A study of Schmidtea mediterranea with 40 samples.

Results

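The wound-induced transcription factors *fos-1*, *runt-1* and an EGR-like gene were followed as 3 of the 28742 contigs in a read count table of the planarian *Schmidtea mediterranea*. They were taken by contig identifier: dd_Smed_v6_2789_0_1 for *fos-1*, dd_Smed_v6_16222_0_1 for *runt-1*, and dd_Smed_v6_7731_0_1 for EGR-like, whose deposited name is EGR-like protein 1 and whose best human match is early growth response 4. The same name stands beside 7 contigs in that annotation, so EGR-like here always means the contig given. Contigs belong to an assembled transcriptome, and no genome position is attached to them.

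Fos, Runt and EGR proteins are DNA-binding factors of different families that many animals switch on soon after a stimulus. Fos carries a basic leucine zipper and binds DNA paired with Jun, Runt proteins carry a Runt domain and in vertebrates direct blood and bone lineages, and EGR proteins carry zinc fingers and are classic early targets of growth factor signalling. In planarians, genes of these families are part of the generic response that follows any wound, before tissue-specific regeneration begins, and *runt-1* is known for a role in the specification of new cell types by the dividing stem cells called neoblasts.

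The study asked how inhibition of *activin-2*, which encodes a TGF-beta family ligand, changes gene expression at wounds. Animals of the clonal CIW4 strain ate double-stranded RNA 4 times over 14 days, either against *activin-2* (*activin-2* RNAi) or against the *C. elegans* gene *unc-22* (control RNAi), and were cut 7 days after the last meal. Feeding reaches the whole animal, so the inhibition is not tied to a cell type, and animal age is not given in the sources used here. Each library was made from polyadenylated RNA of 5 pooled wounds of post-pharyngeal fragments. The *activin-2* RNAi arm and the control RNAi arm each have 3 libraries labelled 0, 6, 24 and 48 hours post amputation (hpa) and 4 libraries per wound face at 18 hpa, anterior-facing and posterior-facing. Libraries labelled 6, 24 and 48 hpa are posterior-facing, whereas the labels of those at 0 hpa give no wound orientation.

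The 40 libraries held between 2524235 and 13381025 counted reads, the lowest being *activin-2* RNAi replicate 3 at 48 hpa. Reads of *activin-2* itself were depleted in *activin-2* RNAi libraries labelled 0, 6, 24 and 48 hpa, with 2.25 to 5.55 RPM (reads per 1000000 counted), against 30.3 to 54.0 RPM in control RNAi libraries. At 18 hpa this did not hold throughout. Libraries of *activin-2* RNAi held 25.8 to 85.8 RPM at anterior-facing wounds, against 27.1 to 31.9 RPM in control RNAi. At posterior-facing wounds replicates 1 to 4 held 70.1, 16.6, 6.02 and 3.63 RPM in *activin-2* RNAi, against 33.4 to 44.3 RPM in control RNAi. Only replicates 3 and 4 of that group were depleted to a level near the other times, so the results of the 3 genes that use it are also given from those replicates alone. The study reported that *activin-2* RNAi raised *notum*, a Wnt inhibitor gene, at these wounds. Replicates 1 to 4 held 5.18, 4.35, 4.43 and 4.71 RPM of *notum*, all above the 0.957 to 2.04 RPM in control RNAi. Why *activin-2* reads remained in replicates 1 and 2 was not tested. The mean log2(RPM + 0.1) of 127 contigs listed by the study as wound-induced did not follow the labelled times in one direction. In *activin-2* RNAi it was 4.27 at 0 hpa, 3.96 at 6 hpa, 4.33 at posterior-facing 18 hpa, 3.74 at 24 hpa and 4.42 at 48 hpa, and in control RNAi it was 4.30, 4.05, 4.16, 3.54 and 4.37 at the same labels. Whether some time labels were exchanged was not tested. Times are therefore named as labelled, and each change against 0 hpa is a change against the libraries that carry that label. Libraries at 18 hpa also differ in number per group and in the form of their labels. The labels do not say whether they were prepared together with the others. Between 18 hpa and other labels, and in the time interaction, a difference in preparation cannot be told apart from time. In bulk tissue, fewer cells of a type and less RNA per cell cannot be told apart.

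All 3 genes had reads in all 40 libraries, and they differed widely in how much their level moved. The *fos-1* contig ranged from 74.3 to 304 RPM with a median of 169 RPM, and its highest group mean was 3.71 times its lowest. By contrast *runt-1* ranged from 0.318 to 43.2 RPM (median 4.10 RPM, from 3 to 560 reads), a ratio of group means of 58.4. EGR-like lay between, at 4.27 to 179 RPM (median 26.6 RPM), with a ratio of 28.2. RPM is not corrected for transcript length, so these levels compare libraries and not genes. The plot of levels by labelled time shows that *fos-1* and *runt-1* shared their low point at 24 hpa in both arms, while EGR-like was lower in *activin-2* RNAi at 0 and 6 hpa.

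**Figure D1:**
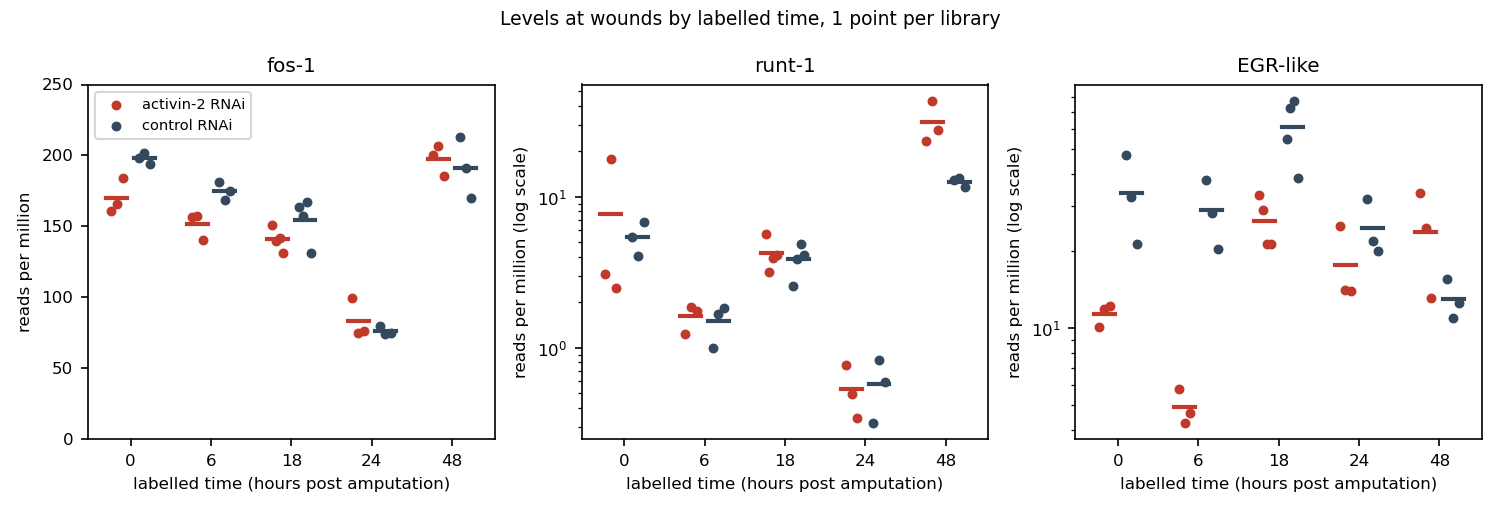
RPM of *fos-1* (linear axis from 0), *runt-1* and EGR-like (log axes) against labelled time in hpa, posterior-facing or 0 hpa libraries, *activin-2* RNAi left (red) and control RNAi right (blue-grey) at each time. Each point is 1 library and each bar the group mean. *fos-1* lies between 74.3 and 99.2 RPM at 24 hpa in both arms, *runt-1* between 0.318 and 0.827 RPM, and EGR-like at 6 hpa between 4.27 and 5.82 RPM in *activin-2* RNAi, against 20.3 to 38.1 RPM in control RNAi.

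To ask whether the 3 factors differ between wound faces, anterior-facing wounds were compared with posterior-facing wounds at 18 hpa within each arm. All 3 genes were higher at anterior-facing wounds in both arms. With p-values adjusted by Benjamini-Hochberg across every contig tested, edgeR's quasi-likelihood test called 3 of 3 in *activin-2* RNAi, where 18.4% of 16360 contigs were called changed, and 3 of 3 in control RNAi, where 15.4% of 16195 were. The mean log2 level of the 127 wound-induced contigs, which include the 3 genes, was also higher on that face. In *activin-2* RNAi libraries it was 4.44 to 4.57 at anterior-facing wounds, against 4.27 to 4.43 at posterior-facing wounds. In control RNAi it was 4.45 to 4.62 at anterior-facing wounds, against 4.08 to 4.24 at posterior-facing wounds. The direction was thus shared by that list, and whether the 3 genes differed from it was not tested.

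In *activin-2* RNAi, *fos-1* had 273, 278, 250 and 240 RPM at anterior-facing wounds, against 151, 139, 142 and 131 RPM at posterior-facing wounds. In control RNAi it had 304, 297, 297 and 235 RPM at anterior-facing wounds, against 163, 157, 167 and 131 RPM at posterior-facing wounds. In each arm the ranges of the faces were apart, with all anterior-facing values on the upper side. The log2 fold change was 0.87 ± 0.07 (SE) in *activin-2* RNAi (edgeR adjusted p = 7.84e-07) and 0.81 ± 0.09 in control RNAi (edgeR adjusted p = 4.17e-05).

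The *runt-1* contig had 5.66, 7.93, 11.5 and 15.5 RPM at anterior-facing wounds of *activin-2* RNAi animals, against 5.64, 3.18, 3.93 and 4.12 RPM at posterior-facing wounds. Control RNAi animals had 11.8, 11.8, 18.0 and 13.2 RPM at anterior-facing wounds, against 2.55, 3.89, 4.87 and 4.08 RPM at posterior-facing wounds. The faces were well apart in control RNAi, whereas in *activin-2* RNAi the lowest anterior-facing library almost touched the highest posterior-facing library. Log2 fold changes were 1.28 ± 0.27 in *activin-2* RNAi (edgeR adjusted p = 0.00391) and 1.76 ± 0.20 in control RNAi (edgeR adjusted p = 3.34e-05).

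EGR-like had 157, 125, 117 and 75.5 RPM at anterior-facing wounds of *activin-2* RNAi animals, against 33.2, 28.9, 21.4 and 21.3 RPM at posterior-facing wounds. In control RNAi the values were 179, 135, 141 and 99.8 RPM at anterior-facing wounds, against 55.0, 72.5, 77.4 and 38.5 RPM at posterior-facing wounds. Neither arm had overlapping faces, and the posterior-facing libraries of *activin-2* RNAi all lay below those of control RNAi. The log2 fold change was 2.17 ± 0.19 in *activin-2* RNAi (edgeR adjusted p = 1.82e-06) and 1.11 ± 0.20 in control RNAi (edgeR adjusted p = 0.00166).

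**Figure D2:**
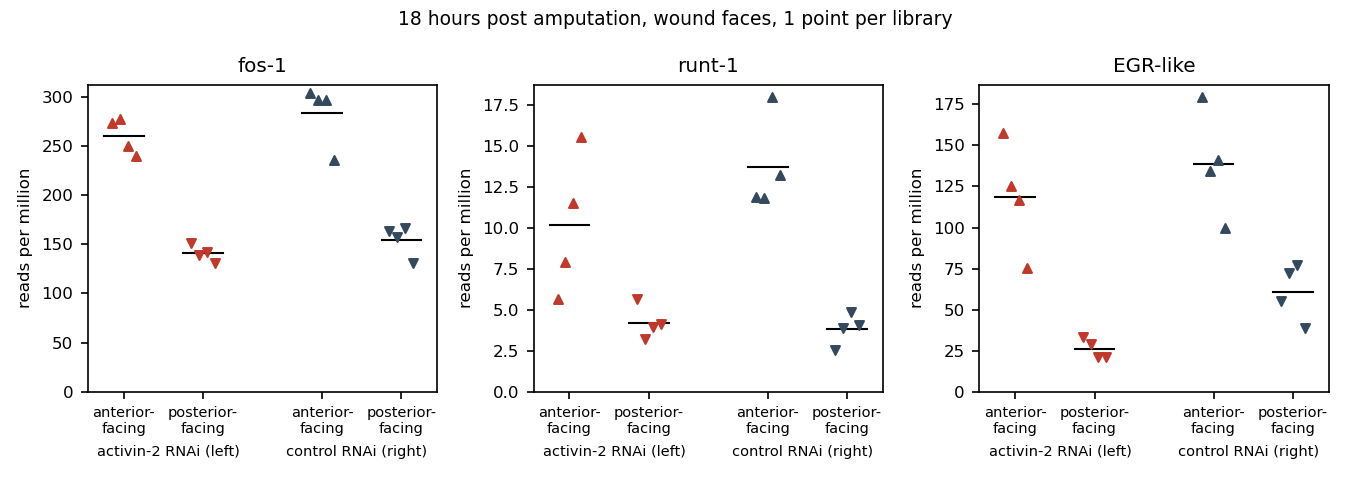
RPM at 18 hpa of *fos-1*, *runt-1* and EGR-like, *activin-2* RNAi left (red) and control RNAi right (blue-grey), with anterior-facing wounds (upward triangles) before posterior-facing wounds (downward triangles). Each point is 1 library, each bar the mean of 4, and axes start at 0. In *activin-2* RNAi *fos-1* averages 260 RPM at anterior-facing and 141 RPM at posterior-facing wounds, and EGR-like 119 RPM at anterior-facing and 26.2 RPM at posterior-facing wounds.

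Whether the face difference itself differed between arms was tested as an interaction at 18 hpa, a test that called 0.0941% of 17011 contigs. None of the 3 genes passed in edgeR. For EGR-like the anterior-over-posterior log2 difference was 1.05 ± 0.32 larger in *activin-2* RNAi than in control RNAi (edgeR adjusted p = 0.497). DESeq2 did not call it either (1.04, adjusted p = 0.758), and an unadjusted edgeR p under 0.05 was reached by EGR-like alone among the 3. For *runt-1* the interaction was -0.49 ± 0.38 (edgeR adjusted p = 1.00, 95% interval from -1.23 to 0.25) and for *fos-1* 0.04 ± 0.12 (edgeR adjusted p = 1.00, 95% interval from -0.19 to 0.28), both intervals being normal approximations from the SE. With replicates 3 and 4 alone for posterior-facing *activin-2* RNAi, the EGR-like interaction was 1.32 (edgeR adjusted p = 0.667), and the *activin-2* RNAi face differences were 2.44 for EGR-like, 1.32 for *runt-1* and 0.90 for *fos-1*, each still called. The *runt-1* interaction was then -0.44 and that of *fos-1* 0.083, neither called. The anterior-facing *activin-2* RNAi libraries in these fits were not depleted of *activin-2* reads. With replicates 3 and 4 alone, wound face and depletion therefore cannot be told apart in that arm.

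Tissue markers also differed between the faces. In *activin-2* RNAi the 306 neural-annotated contigs summed to 12023 to 12749 RPM on the anterior-facing side, against 10977 to 11633 RPM on the posterior-facing side. In control RNAi they summed to 11799 to 12934 RPM on the anterior-facing side, against 10099 to 10968 RPM on the posterior-facing side. Sums of 1083 muscle-annotated contigs were lower at anterior-facing wounds, at 62559 to 64218 RPM against 65579 to 68564 RPM on the other face in *activin-2* RNAi, and at 61670 to 63225 RPM against 64850 to 69288 RPM in control RNAi. Neither sum overlapped between faces in either arm. In *activin-2* RNAi 4 pharynx marker contigs summed to 3.89 to 14.2 RPM at anterior-facing and 54.2 to 177 RPM at posterior-facing wounds, while in control RNAi they overlapped, as did the gut and neoblast sums in both arms. The part of these tissues in the face differences was not tested.

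Next, *activin-2* RNAi was compared with control RNAi at each labelled time and face. EGR-like was the gene that moved most: it was lower in *activin-2* RNAi at 0 hpa, 6 hpa and posterior-facing 18 hpa wounds. At 48 hpa *runt-1* was higher in *activin-2* RNAi, and *fos-1* did not pass the test at any time or face. Contigs called changed were 4.22% of 16203 at 0 hpa (1 of 3 members), 2% of 16536 at 6 hpa (1 of 3), 2.6% of 16019 at anterior-facing 18 hpa (0 of 3), 8.93% of 16346 at posterior-facing 18 hpa (1 of 3), 12.5% of 16200 at 24 hpa (0 of 2 tested) and 2.33% of 15725 at 48 hpa (1 of 3).

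At 0 hpa EGR-like had 10.1, 11.9 and 12.2 RPM in *activin-2* RNAi libraries, against 47.5, 32.6 and 21.4 RPM in control RNAi libraries. At 6 hpa the values were 5.82, 4.27 and 4.68 RPM in *activin-2* RNAi and 38.1, 28.1 and 20.3 RPM in control RNAi. Every *activin-2* RNAi library lay below every control RNAi library at both times, and the control RNAi libraries were the more spread. EGR-like was 2.92-fold lower at 0 hpa (log2 fold change -1.55 ± 0.25, edgeR adjusted p = 0.00368) and 5.70-fold lower at 6 hpa (-2.51 ± 0.25, edgeR adjusted p = 0.00534).

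At posterior-facing 18 hpa wounds EGR-like had a mean of 26.2 ± 5.86 RPM in *activin-2* RNAi and 60.9 ± 17.7 RPM in control RNAi (SD, n = 4 each), from the libraries given above. The highest *activin-2* RNAi library, at 33.2 RPM, was below the lowest control RNAi library, at 38.5 RPM. The log2 fold change was -1.30 ± 0.19 (edgeR adjusted p = 3.02e-04), and -1.57 with the depleted replicates 3 and 4 alone (edgeR adjusted p = 0.00139). The same posterior-facing libraries differed in a pharynx marker contig, dd_Smed_v6_554_0_1, at 17.1 to 46.8 RPM in *activin-2* RNAi and 0.0870 to 0.996 RPM in control RNAi, and 4 pharynx marker contigs summed to 54.2 to 177 RPM in *activin-2* RNAi, against 0.696 to 1.82 RPM in control RNAi. The neural sums given above did not overlap between the arms either, and neither did the neoblast marker *smedwi-1*, at 876 to 925 RPM in *activin-2* RNAi and 741 to 836 RPM in control RNAi. The part of these tissues in the EGR-like difference was not tested. At 0 hpa, where EGR-like also differed, the summed pharynx markers overlapped, at 6.70 to 21.2 RPM in *activin-2* RNAi and 0.448 to 41.9 RPM in control RNAi, as did the neural, muscle, gut and neoblast sums, but *smedwi-1* did not, at 916 to 944 RPM in *activin-2* RNAi and 721 to 820 RPM in control RNAi. At 6 hpa 3 sums did not overlap. Pharynx markers summed to 3.30 to 28.7 RPM in *activin-2* RNAi and 0.605 to 1.23 RPM in control RNAi, muscle contigs to 69396 to 77675 RPM in *activin-2* RNAi and 67215 to 68717 RPM in control RNAi, and 470 neoblast-annotated contigs to 6958 to 7346 RPM in *activin-2* RNAi and 7574 to 7808 RPM in control RNAi. Their part at 0 and 6 hpa was not tested.

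Anterior-facing wounds at 18 hpa gave a mean EGR-like level of 119 ± 33.7 RPM in *activin-2* RNAi and 139 ± 32.6 RPM in control RNAi (SD, n = 4 each). The arms overlapped, and the log2 difference was -0.24 ± 0.19 (edgeR adjusted p = 0.639, 95% interval from -0.62 to 0.14). These are also the libraries in which *activin-2* reads were not depleted.

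At 24 hpa EGR-like had 25.0, 14.1 and 14.0 RPM in *activin-2* RNAi and 32.0, 21.9 and 20.0 RPM in control RNAi, a log2 difference of -0.60 ± 0.24 that missed the threshold (edgeR adjusted p = 0.119). At 48 hpa the difference had the other sign, with 33.7, 24.6 and 13.1 RPM in *activin-2* RNAi and 15.5, 11.0 and 12.5 RPM in control RNAi (0.91 ± 0.24, edgeR adjusted p = 0.0776). At each of these times the arms overlapped in 1 or more libraries. The call at 24 hpa changed when *activin-2* RNAi replicate 1 was left out (-0.95, edgeR adjusted p = 0.00954) or control RNAi replicate 3 (-0.77, adjusted p = 0.0372), and at 48 hpa when *activin-2* RNAi replicate 2 (1.03, adjusted p = 0.0205) or replicate 3 (1.09, adjusted p = 0.0301) was.

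The *runt-1* contig at 48 hpa had 23.2, 43.2 and 27.7 RPM in *activin-2* RNAi libraries, against 12.9, 13.2 and 11.6 RPM in control RNAi libraries. Each *activin-2* RNAi library was well above each control RNAi library, and the control RNAi values were close together. The level was 2.44-fold higher in *activin-2* RNAi (log2 fold change 1.29 ± 0.19, edgeR adjusted p = 0.00412), and it remained called without any 1 of the 6 libraries (0.97 to 1.49), the shallow *activin-2* RNAi replicate 3 included. Summed RPM of 924 gut-annotated contigs, the deposited cluster annotation of *runt-1* itself being a gut cluster, was 114121 to 126666 in *activin-2* RNAi and 117073 to 118381 in control RNAi at this time, and overlapped. The neoblast-annotated contigs summed to 5990 to 6988 RPM in *activin-2* RNAi and 6211 to 6387 RPM in control RNAi, and overlapped too. The single neoblast marker *smedwi-1*, which encodes a Piwi protein, did not overlap: it had 648, 877 and 673 RPM in *activin-2* RNAi libraries, against 610, 581 and 597 RPM in control RNAi libraries, and so was higher in the same arm as *runt-1*. The 4 pharynx markers did not overlap either, at 3.86 to 122 RPM in *activin-2* RNAi and 0.647 to 1.54 RPM in control RNAi. The part of either in the *runt-1* difference was not tested.

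At the other times *runt-1* did not pass the test. At 0 hpa it had 3.08, 17.6 and 2.49 RPM in *activin-2* RNAi and 5.38, 4.08 and 6.84 RPM in control RNAi. *activin-2* RNAi replicate 2 stood far above the rest, and the sign of the log2 difference depended on it: 0.51 ± 0.55 with it (edgeR adjusted p = 0.663) and -0.95 without it (adjusted p = 0.0733). The differences were 0.16 ± 0.30 at 6 hpa (edgeR adjusted p = 0.844), -0.45 ± 0.25 at anterior-facing 18 hpa wounds (adjusted p = 0.451) and 0.04 ± 0.21 at posterior-facing 18 hpa wounds (adjusted p = 0.935), or -0.0088 there with the depleted replicates 3 and 4 alone (adjusted p = 0.993). At 24 hpa *runt-1* had 9, 5 and 4 reads in *activin-2* RNAi and 3, 9 and 7 reads in control RNAi, too few to pass the filter on low counts. In a fit without that filter the difference was -0.26 ± 0.54 (edgeR adjusted p = 0.850), and no difference was detectable at this depth.

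For *fos-1* the log2 differences between arms were -0.18 ± 0.09 at 0 hpa, -0.17 ± 0.08 at 6 hpa and -0.14 ± 0.09 at anterior-facing 18 hpa wounds. They were -0.19 ± 0.07 at posterior-facing 18 hpa wounds, -0.01 ± 0.11 at 24 hpa and 0.01 ± 0.10 at 48 hpa (edgeR adjusted p from 0.120 to 0.987). All 95% intervals, normal approximations from the SE, lay between -0.36 and 0.21. At 0 and 6 hpa they left out 0, although the unadjusted edgeR p was 0.0707 and 0.0773. The interval at posterior-facing 18 hpa wounds, from -0.33 to -0.049, left out 0 too. There the unadjusted edgeR p was 0.0179 and the adjusted p 0.120. The *fos-1* arms did not overlap at 0 hpa, at 161, 166 and 184 RPM in *activin-2* RNAi and 198, 202 and 194 RPM in control RNAi. They did not overlap at 6 hpa either, at 157, 157 and 141 RPM in *activin-2* RNAi and 181, 169 and 175 RPM in control RNAi. These gaps were small beside those of EGR-like at the same times. With the depleted replicates 3 and 4 alone the posterior-facing 18 hpa difference was -0.23 (edgeR adjusted p = 0.214). Without control RNAi replicate 4, its lowest library, it was -0.26 and was called (edgeR adjusted p = 0.00717).

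**Figure D3:**
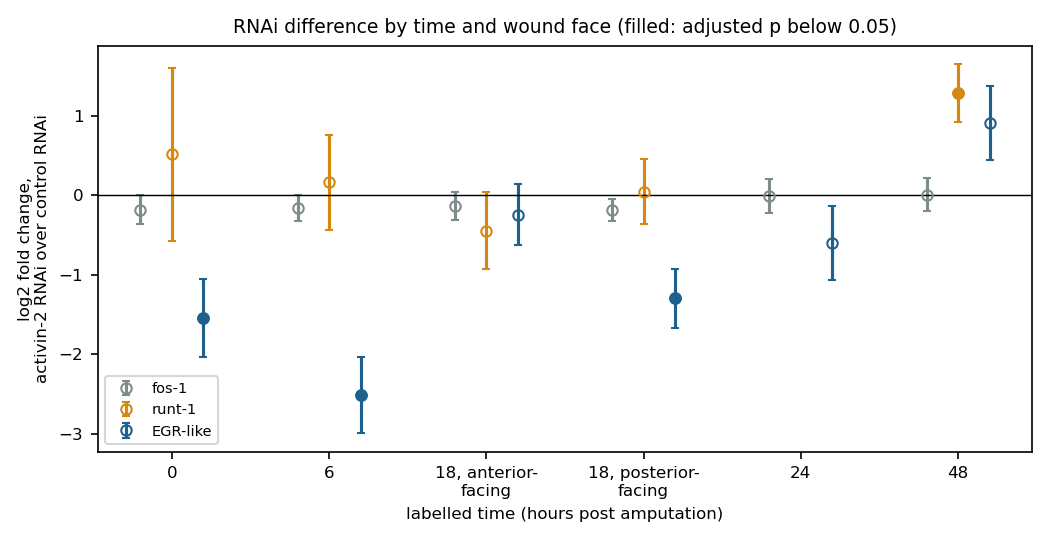
RNAi difference (log2 scale, *activin-2* RNAi relative to control RNAi) for *fos-1* (grey), *runt-1* (orange) and EGR-like (blue) at each labelled time and, at 18 hpa, wound face. Bars are 95% intervals, normal approximations from the SE that run narrow with few libraries, and filled points passed an edgeR adjusted p of 0.05. EGR-like lies at -1.55, -2.51, -0.24, -1.30, -0.60 and 0.91 in the order of the axis, *fos-1* stays between -0.19 and 0.01, and *runt-1* is not drawn at 24 hpa, where it was not tested.

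Whether the RNAi difference varied over the 5 labelled times was tested across posterior-facing and 0 hpa libraries, as an RNAi by time interaction that called 5.53% of 18102 contigs and 1 of the 3 members. For EGR-like the log2 difference between arms spanned 3.41 from its lowest (6 hpa) to its highest (48 hpa) value, and the interaction passed the test (edgeR adjusted p = 1.99e-04). It passed without any 1 of the 32 libraries, but among libraries labelled 0, 6 and 18 hpa alone the span was 1.20 and was not called (edgeR adjusted p = 0.300). The span was 1.54 for *runt-1* (adjusted p = 0.414) and 0.19 for *fos-1* (adjusted p = 0.708). With replicates 3 and 4 alone for posterior-facing *activin-2* RNAi at 18 hpa, the interaction passed for EGR-like (span 3.41, edgeR adjusted p = 2.48e-04) and not for *runt-1* (1.54, adjusted p = 0.491) or *fos-1* (0.23, adjusted p = 0.721). Leaving out *activin-2* RNAi replicate 2 at 0 hpa, the *runt-1* library that stood apart, gave a *runt-1* span of 2.22 that was called (edgeR adjusted p = 0.00126).

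The time course within each arm was read next, with each labelled time set against 0 hpa. In *activin-2* RNAi the mean *fos-1* level was 170 ± 12.1 RPM at 0 hpa, 152 ± 9.44 at 6 hpa, 141 ± 8.28 at 18 hpa posterior-facing, 83.6 ± 13.5 at 24 hpa and 198 ± 11.0 at 48 hpa (SD, n = 3, and 4 at 18 hpa). In control RNAi the same course was 198 ± 3.89, 175 ± 6.11, 155 ± 16.1, 76.4 ± 3.09 and 191 ± 21.5 RPM. Every library at 24 hpa was below every library of any other time in its arm. Against 0 hpa, *fos-1* fell at 18 hpa posterior-facing by 0.34 on the log2 scale in each arm (edgeR adjusted p = 0.00102 in *activin-2* RNAi and 0.0104 in control RNAi), and at 24 hpa the log2 change was -1.03 in *activin-2* RNAi (adjusted p = 1.08e-04) and -1.21 in control RNAi (adjusted p = 2.08e-06). Changes at 6 and 48 hpa were not called, at -0.16 and 0.26 in *activin-2* RNAi and -0.19 and 0.07 in control RNAi.

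Ordered by level, *fos-1* was lowest at 24 hpa, then at posterior-facing 18 hpa, and highest at anterior-facing 18 hpa in both arms. In *activin-2* RNAi the neighbours posterior-facing 18 hpa and 6 hpa overlapped. In control RNAi 6 hpa overlapped with 48 hpa, and 48 hpa with 0 hpa, while the other neighbours were apart.

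The *runt-1* course had the same low point and a wider swing. In *activin-2* RNAi it was 7.73 ± 8.57 RPM at 0 hpa, 1.62 ± 0.336 at 6 hpa, 4.22 ± 1.03 at 18 hpa posterior-facing, 0.537 ± 0.218 at 24 hpa and 31.4 ± 10.5 at 48 hpa (SD, n = 3, and 4 at 18 hpa). In control RNAi it was 5.43 ± 1.38, 1.50 ± 0.445, 3.85 ± 0.965, 0.579 ± 0.255 and 12.6 ± 0.877 RPM.

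In *activin-2* RNAi the *runt-1* change at 24 hpa against 0 hpa was -3.82 (edgeR adjusted p = 0.0104), lost without *activin-2* RNAi 24 hpa replicate 3 (-3.56, adjusted p = 0.0600). The change was -2.25 at 6 hpa (adjusted p = 0.182) and 2.07 at 48 hpa (adjusted p = 0.102), neither of them called. Same-numbered libraries of these 2 groups at 48 and 0 hpa had deviations correlated by 0.184 to 0.253. Differently numbered ones were not compared, so pairing was not shown. With the replicate number as a block, the change at 48 hpa was 2.23 and was called (edgeR adjusted p = 3.45e-05). It was also called without 0 hpa replicate 2, at 3.54 (adjusted p = 8.48e-05). The same library set the sign at 18 hpa posterior-facing, where the change was -0.95 with it (edgeR adjusted p = 0.166) and 0.51 without it (adjusted p = 0.120). Without 0 hpa replicate 1 or 3 instead, that change was called, at -1.34 (edgeR adjusted p = 0.0453) and -1.38 (adjusted p = 0.0329). Leaving out replicate 2 also gave -0.77 at 6 hpa, not called, and -2.35 at 24 hpa, still called.

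Against 0 hpa, *runt-1* in control RNAi fell by 1.91 on the log2 scale at 6 hpa (edgeR adjusted p = 0.00749) and by 3.05 at 24 hpa (adjusted p = 3.29e-05), and rose by 1.29 at 48 hpa (adjusted p = 2.69e-04). Its change at 18 hpa posterior-facing was -0.50 (adjusted p = 0.113).

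By level, *runt-1* in *activin-2* RNAi ran from 24 hpa through 6 hpa, posterior-facing 18 hpa, 0 hpa and anterior-facing 18 hpa to 48 hpa. Libraries of posterior-facing 18 hpa, 0 hpa and anterior-facing 18 hpa overlapped with their neighbours. In control RNAi the order was the same except that anterior-facing 18 hpa, at 13.7 ± 2.91 RPM, stood above 48 hpa and overlapped with it.

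EGR-like did not share that low point. In *activin-2* RNAi it was 11.4 ± 1.12 RPM at 0 hpa, 4.92 ± 0.801 at 6 hpa, 26.2 ± 5.86 at 18 hpa posterior-facing, 17.7 ± 6.35 at 24 hpa and 23.8 ± 10.3 at 48 hpa (SD, n = 3, and 4 at 18 hpa), so that 6 hpa was the lowest time. In control RNAi it was 33.8 ± 13.1, 28.8 ± 8.89, 60.9 ± 17.7, 24.6 ± 6.48 and 13.0 ± 2.31 RPM, with the lowest time at 48 hpa. Against 0 hpa, EGR-like in *activin-2* RNAi fell by 1.21 on the log2 scale at 6 hpa (edgeR adjusted p = 0.0168) and rose by 1.12 at 18 hpa posterior-facing (adjusted p = 6.45e-05) and by 1.18 at 48 hpa (adjusted p = 0.0360). In control RNAi it rose by 0.85 at 18 hpa posterior-facing (edgeR adjusted p = 0.0310) and fell by 1.26 at 48 hpa (adjusted p = 0.00655), and its change at 6 hpa was -0.25 (adjusted p = 0.741).

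Calls of EGR-like near the threshold leaned on few libraries. In *activin-2* RNAi the 6 hpa fall was lost without 0 hpa replicate 2 (-1.17) or 3 (-1.16) or 6 hpa replicate 2 (-1.13), with adjusted p from 0.0594 to 0.0740. The 48 hpa rise was lost without 0 hpa replicate 1, 2 or 3 or 48 hpa replicate 1 (0.85 to 1.21, edgeR adjusted p from 0.0759 to 0.156). The control RNAi rise at 18 hpa was lost without 0 hpa replicate 2 (0.83) or replicate 3 (0.55), or 18 hpa replicate 2 (0.73) or replicate 3 (0.71), with edgeR adjusted p from 0.0707 to 0.108. At 24 hpa against 0 hpa EGR-like was 0.64 in *activin-2* RNAi (adjusted p = 0.0607) and -0.31 in control RNAi (adjusted p = 0.422), and the first was called without 24 hpa replicate 2 (0.77, adjusted p = 0.0429).

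In the order of levels EGR-like was highest at anterior-facing 18 hpa in both arms, apart from every other group of its arm. Among its neighbours in *activin-2* RNAi, 24 hpa, 48 hpa and posterior-facing 18 hpa overlapped in turn. In control RNAi all neighbours from 24 hpa up to posterior-facing 18 hpa overlapped, and 48 hpa was apart below them.

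Read against the whole table, contigs called changed against 0 hpa in *activin-2* RNAi were 1.13% of 16071 at 6 hpa (1 of 3 members), 37.8% of 16674 at 18 hpa posterior-facing (2 of 3), 12.8% of 16171 at 24 hpa (2 of 3) and 1.07% of 15889 at 48 hpa (1 of 3). In control RNAi they were 0.821% of 16688 at 6 hpa (1 of 3), 26.4% of 16500 at 18 hpa posterior-facing (2 of 3), 23.5% of 16259 at 24 hpa (2 of 3) and 11% of 16153 at 48 hpa (2 of 3). The share of all contigs called thus varied widely between times, and at 18 hpa a difference in preparation cannot be told apart from time. With the depleted replicates 3 and 4 alone, the *activin-2* RNAi changes at 18 hpa posterior-facing were 0.85 for EGR-like (edgeR adjusted p = 5.37e-04), -0.38 for *fos-1* (adjusted p = 0.00949) and -1.0 for *runt-1* (adjusted p = 0.325), with the same calls as from 4 replicates.

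Tissue markers moved with the labelled times as well. At 18 hpa posterior-facing the neural and neoblast sums were above, and the muscle sums below, every 0 hpa library in both arms, with neural sums of 10977 to 11633 RPM against 8282 to 9000 RPM at 0 hpa in *activin-2* RNAi and 10099 to 10968 RPM against 8723 to 9303 RPM in control RNAi. Pharynx sums were above 0 hpa at that time in *activin-2* RNAi, at 54.2 to 177 RPM against 6.70 to 21.2 RPM. At 24 hpa the neoblast sums lay below 0 hpa in both arms, at 6215 to 6517 RPM against 6751 to 7093 RPM in *activin-2* RNAi and 6084 to 6245 RPM against 6453 to 6936 RPM in control RNAi. The marker *smedwi-1* lay below 0 hpa at 24 and 48 hpa, and above it at 6 hpa, in both arms without overlap. Control RNAi also differed from 0 hpa in muscle (lower) and neoblast (higher) sums at 6 hpa, in gut (higher) and neural (lower) sums at 24 hpa, and in gut (higher) and neoblast (lower) sums at 48 hpa, and *activin-2* RNAi in neural sums at 48 hpa (higher). The part of these tissues in the changes of the 3 genes was not tested.

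Both *fos-1* and *runt-1* were higher in the libraries labelled 48 hpa than in the 24 hpa libraries. The *runt-1* values in *activin-2* RNAi were 23.2, 43.2 and 27.7 RPM at 48 hpa, against 0.772, 0.498 and 0.341 RPM at 24 hpa. In control RNAi they were 12.9, 13.2 and 11.6 RPM at 48 hpa, against 0.318, 0.827 and 0.592 RPM at 24 hpa. The labelled times were far apart in both arms. The log2 change of *runt-1* at 48 over 24 hpa was 5.89 ± 0.31 in *activin-2* RNAi (edgeR adjusted p = 4.27e-06) and 4.35 ± 0.23 in control RNAi (adjusted p = 3.48e-07). For *fos-1* the change was 1.30 ± 0.12 (adjusted p = 3.82e-04) in *activin-2* RNAi and 1.29 ± 0.09 (adjusted p = 3.15e-06) in control RNAi. EGR-like went the other way in control RNAi, at -0.94 ± 0.19 (edgeR adjusted p = 0.00584), and was not called in *activin-2* RNAi, at 0.55 ± 0.28 (adjusted p = 0.416). Contigs called changed were 0.909% of 16179 in *activin-2* RNAi (2 of 3 members) and 14% of 15752 in control RNAi (3 of 3). In control RNAi 3 tissue sums did not overlap between these labels: pharynx markers had 0.647 to 1.54 RPM at 48 hpa, against 11.1 to 75.5 RPM at 24 hpa, neural contigs 8624 to 9800 RPM at 48 hpa, against 7879 to 8394 RPM at 24 hpa, and muscle contigs 75324 to 75854 RPM at 48 hpa, against 78486 to 83244 RPM at 24 hpa. In *activin-2* RNAi all 5 tissue sums overlapped, and the part of these tissues was not tested.

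Exact two-sided permutation tests of mean log2(RPM + 0.1) were run for the 18 pairs of groups and 3 genes. Their smallest possible p is 0.1 for 3 libraries against 3, 0.0571 for 4 against 3 and 0.0286 for 4 against 4, so only comparisons between 18 hpa groups could pass on their own. All 3 genes reached the smallest p in both comparisons of wound faces, and EGR-like reached it for the arms at posterior-facing wounds. After Benjamini-Hochberg adjustment over the 54 exact tests the lowest p was 0.154. The calls in the text are those of edgeR, which estimates the spread over all contigs together.

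The 3 genes were then set beside other wound-induced transcription factors. The list holds 10 contigs with a bZIP, Runt, zinc finger or hormone receptor domain, among them the 3 members. It was drawn from genes the study listed as wound-induced, and its counts and medians include the members wherever they were tested. Its direction is therefore not independent evidence. At anterior-facing over posterior-facing 18 hpa wounds 6 of 10 were higher and 0 lower in each arm (median log2 fold change 0.43 in *activin-2* RNAi and 0.55 in control RNAi, against 0.01 over all contigs tested in each), while 8.88% of all contigs were higher in *activin-2* RNAi and 7.24% in control RNAi. Besides the members these were the zinc finger contig dd_Smed_v6_9273_0_1, annotated Early growth response-2 (0.95 in each arm), the bZIP contig dd_Smed_v6_5749_0_1 (0.58 in *activin-2* RNAi and 0.64 in control RNAi) and dd_Smed_v6_3012_0_1, annotated as a thyroid hormone receptor, a nuclear receptor (0.29 in *activin-2* RNAi and 0.46 in control RNAi).

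Between arms EGR-like was the sole contig of the list that edgeR called at 0 and at 6 hpa, while DESeq2 called 2 at 0 hpa and 1 at 6 hpa. At posterior-facing 18 hpa wounds 3 of 10 were higher and 2 lower in *activin-2* RNAi, the lower pair being EGR-like and dd_Smed_v6_9273_0_1 (-0.38) and the higher ones the Kruppel-like factor contig dd_Smed_v6_3638_0_1 (0.52), the hormone receptor (0.34) and dd_Smed_v6_5853_0_1, annotated as the cAMP response factor CREB (0.22), while 3.15% of all contigs were higher and 5.78% lower. DESeq2 called 3 of the list there in place of 5. At 24 hpa 4 of 9 tested were higher, namely dd_Smed_v6_3638_0_1 (1.66), the Sp family contig dd_Smed_v6_7824_0_1 (1.11), dd_Smed_v6_5853_0_1 (0.71) and dd_Smed_v6_3012_0_1 (0.43). None was lower at that time, whereas 4.51% of all contigs were higher and 7.96% lower. At 24 hpa the arms were also apart in neural sums, at 8731 to 9893 RPM in *activin-2* RNAi and 7879 to 8394 RPM in control RNAi, and in *smedwi-1*, at 704 to 734 RPM in *activin-2* RNAi and 555 to 602 RPM in control RNAi, and their part was not tested. That split depended on the scaling: 36.2% of the called contigs were higher with TMM factors and 74.8% with library size alone, which moved the median of all contigs to 0.16 on the log2 scale. At posterior-facing 18 hpa wounds the same shares were 35.3% and 55.7%. At anterior-facing 18 hpa wounds dd_Smed_v6_3638_0_1 was the sole contig of the list that edgeR called (0.56), and at 48 hpa *runt-1* was, where DESeq2 called 3. Over all contigs 0.755% were higher in the first of these comparisons and 0.496% in the second.

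The same list was then counted at the labels 24 and 48 hpa. Against 0 hpa 7 of 10 fell and 1 rose at 24 hpa in *activin-2* RNAi (median -0.57), the one that rose being dd_Smed_v6_3638_0_1 (0.58), and 7 of 10 fell and 0 rose in control RNAi (median -1.13). All contigs tested had medians of 0.00 and -0.03 in these fits, and 6.82% of them fell and 6.01% rose in *activin-2* RNAi, as did 11.9% and 11.6% in control RNAi. With library size alone the control RNAi median of all contigs was -0.20. dd_Smed_v6_9273_0_1 fell most beside *runt-1*, by 2.41 in *activin-2* RNAi and by 2.98 in control RNAi. At 48 over 24 hpa 5 of 10 were higher in *activin-2* RNAi and 9 of 10 in control RNAi, where EGR-like was the 1 contig that was lower (6.16% of all contigs were). Of the 127 wound-induced contigs, 46 of 124 tested were higher at 48 than 24 hpa in *activin-2* RNAi and 96 of 124 in control RNAi, against 0.754% of all contigs in *activin-2* RNAi and 7.87% in control RNAi. The 127 contigs were chosen by the study for their response to wounds. The 10 contigs were drawn from the same study list and include the members. The direction of either list is therefore not independent evidence.

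Of the families, Runt has 2 contigs here, *runt-1* and dd_Smed_v6_3565_0_1 (Runt-2). Runt-2 had 49.9 to 65.7 RPM at anterior-facing wounds of *activin-2* RNAi animals, against 46.5 to 61.1 RPM at posterior-facing wounds, and was called for neither face difference (log2 0.11 in *activin-2* RNAi and 0.26 in control RNAi) nor for any arm difference. Its change at 48 over 24 hpa was 0.49 in *activin-2* RNAi and -0.01 in control RNAi, neither called. The Fos and Jun list holds *fos-1* and the bZIP contig dd_Smed_v6_5749_0_1, which was added by identifier and not by its annotation. The bZIP contig was higher at 48 than 24 hpa by 0.86 in *activin-2* RNAi and 0.69 in control RNAi. Like *fos-1*, it was called in no comparison of the arms.

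The EGR family by annotation holds 30 contigs, of which 10 have a human EGR gene as best match. The annotation is broad, and several other members match unrelated zinc finger proteins. In *activin-2* RNAi 3 of 26 tested were lower and 0 higher at 0 hpa, and likewise 3 of 26 lower and 0 higher at 6 hpa, with medians of 0.11 at 0 hpa and 0.04 at 6 hpa, while 3.13% of all contigs were lower at 0 hpa and 1.26% at 6 hpa. At both times the 3 were EGR-like, dd_Smed_v6_12410_0_1 (annotated Early GF3, human match early growth response 1) and dd_Smed_v6_14711_0_1 (also annotated Early GF3). For dd_Smed_v6_14711_0_1 the log2 difference between arms was -1.67 at 0 hpa (edgeR adjusted p = 0.0463), -2.59 at 6 hpa (adjusted p = 0.0317) and -1.13 at posterior-facing 18 hpa (adjusted p = 0.0100).

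dd_Smed_v6_12410_0_1 had 1.18, 1.51 and 0.861 RPM at 0 hpa in *activin-2* RNAi, against 4.26, 5.00 and 2.03 RPM in control RNAi. At 48 hpa it had 6.00, 2.24 and 2.77 RPM in *activin-2* RNAi, against 0.847, 0.555 and 1.06 RPM in control RNAi. The arms did not overlap at either time and stood in opposite order. Its log2 differences between arms were -1.56 at 0 hpa, -3.0 at 6 hpa, -1.31 at posterior-facing 18 hpa, -0.81 at 24 hpa and 2.15 at 48 hpa, each called (edgeR adjusted p from 0.00157 to 0.0390), and -0.36 at anterior-facing 18 hpa, not called (adjusted p = 0.475). The interaction of RNAi with time was called for it too (span 5.12, edgeR adjusted p = 3.75e-04). These values rest on few reads, which limits their size. The contig had 9, 3 and 3 reads in *activin-2* RNAi at 6 hpa and 11, 6 and 11 reads in control RNAi at 48 hpa. The shallow *activin-2* RNAi replicate 3 at 48 hpa held 7.

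To find the contigs that moved most like each gene, Pearson correlations of log2(CPM + 0.5) were ranked over 40 libraries among 18350 contigs. These libraries share groups and depth, and the values are descriptions. For EGR-like the closest were dd_Smed_v6_14711_0_1 (r = 0.943) and dd_Smed_v6_12410_0_1 (r = 0.941), followed by dd_Smed_v6_3257_0_1 (r = 0.902), dd_Smed_v6_451_0_1 (r = 0.866) and dd_Smed_v6_57321_0_1 (r = 0.865). Whether reads were shared among these contigs was not tested, since no contig sequence was used here.

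**Figure D4:**
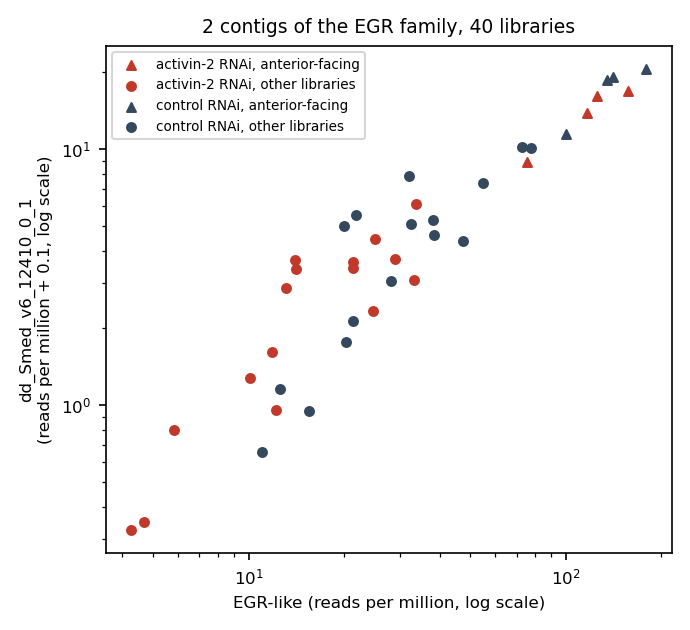
RPM of dd_Smed_v6_12410_0_1, with 0.1 added, against RPM of EGR-like in 40 libraries, both axes log, *activin-2* RNAi in red and control RNAi in blue-grey, anterior-facing wounds as triangles and all other libraries as circles. The 2 contigs rise together (r = 0.941 on log2 values), with the 8 anterior-facing libraries at the upper right and the *activin-2* RNAi libraries of 6 hpa at the lower left, at 0.225 to 0.698 RPM of dd_Smed_v6_12410_0_1.

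For *runt-1* the closest were dd_Smed_v6_9273_0_1 (r = 0.903), the BTG/TOB family contig dd_Smed_v6_7444_0_1 (r = 0.873), 2 contigs of the HSP70 chaperone family, dd_Smed_v6_2324_0_1 (r = 0.853) and dd_Smed_v6_511_0_1 (r = 0.848), and dd_Smed_v6_3674_0_1 (r = 0.848). For *fos-1* they were dd_Smed_v6_4012_0_1, annotated as the kinase Pim-1 (r = 0.914), dd_Smed_v6_899_0_1, matching the creatine synthesis enzyme GATM (r = 0.891), dd_Smed_v6_9273_0_1 (r = 0.888), dd_Smed_v6_11354_0_1, a TNF receptor associated factor (r = 0.882), and the septin contig dd_Smed_v6_1509_0_1 (r = 0.871). The contig dd_Smed_v6_9273_0_1 was thus on the lists of both *fos-1* and *runt-1*.

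Among the members themselves, *fos-1* and *runt-1* had r = 0.765 over the 40 libraries, *fos-1* and EGR-like r = 0.472, and *runt-1* and EGR-like r = 0.309. With *activin-2* reads r was 0.578 for EGR-like, 0.221 for *fos-1* and 0.0694 for *runt-1*. With the Wnt inhibitor gene *notum* r was 0.510 for *fos-1*, 0.203 for *runt-1* and 0.136 for EGR-like.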

How the data were processed

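RNA-seq was made from 40 libraries of pooled planarian wounds. The authors deposited raw read counts per contig of the dd_Smed_v6 transcriptome, summed over reads of the same isotig, and their notes list CASAVA 1.9, cutadapt 1.8, Bowtie 1.2, SAMtools 1.6 and DESeq. Columns with the authors' own fold changes and p-values were not used, and 0 value columns lacked a sample. Reads were tested as deposited, so contigs of near-identical sequence may share reads.

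Groups followed the sample labels. Counts were fitted with edgeR 4.0.16 in R 4.3.3 (TMM factors, filterByExpr keeping contigs by a count of 10 and a summed count of 15, quasi-likelihood test), with each fit holding the 2 groups of a comparison or the groups of an interaction, with Benjamini-Hochberg adjustment over all contigs tested and a threshold of 0.05. RPM (reads per 1000000) used library totals. On simulated counts 200 contigs, drawn only from those with higher mean counts, were changed by 1.5 on the log2 scale. edgeR recovered 98% for the arms at 6 hpa and 100% for the arms at posterior-facing 18 hpa. It recovered 100% for the face interaction and 96% for the time interaction. Of its calls 5.31%, 4.31%, 3.85% and 3.52% were false, in the same order. Contigs with few reads, such as *runt-1* at 6 hpa, were not covered by these recovery rates. Exact permutation tests used scipy 1.17.1. Alternatives were DESeq2 1.42.0, RLE factors, library size alone, no filter, all 12 groups in 1 fit, a replicate block and leaving out each library. After the data were seen, a fit with the depleted posterior-facing libraries and one with labels 0, 6 and 18 hpa were added.

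The genes named are the 3 members, their lists (wound-induced transcription factors, EGR, Fos and Jun, and Runt contigs by annotation) and the 5 contigs most correlated with each member. In the Fos and Jun list dd_Smed_v6_5749_0_1 was added by identifier, since its annotation gives bZIP domains but names neither Fos nor Jun. Members and lists were chosen with earlier results of these data known. A shared replicate number was taken to pair libraries where every same-numbered pair had deviations correlated above 0.1. This rule was met in 1 of 18 comparisons, *activin-2* RNAi at 48 against 0 hpa (0.184 to 0.253). Differently numbered libraries were not compared, so meeting the rule does not show that libraries were paired. The labels do not say whether replicates came from separate cultures, so p-values measure the spread between these libraries. Replicates within groups differed beyond counting noise (mean chi-square per contig 2.71 to 22.2 over 48 pairs).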

Additional observations from a re-analysis of the deposited data

Results flagged for a closer look

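In control RNAi at anterior-facing 18 hpa wounds, *fos-1* had 304, 297, 297 and 235 RPM. The gap below replicate 4 was 0.901 of the group's whole range, past the 95% limit of Dixon's test for 4 libraries. Such a limit is passed by about 1 group in 20 by chance, and 12 groups of 4 were tested over the 3 genes.

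The RNAi difference of EGR-like varied over labelled times, with a span of 3.41 on the log2 scale between its lowest value at 6 hpa and its highest at 48 hpa (edgeR interaction adjusted p = 1.99e-04).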

How the results depend on the processing

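Of 864 alternative values for 59 results, 803 kept their direction and side of the threshold, including 59 of 59 with RLE factors. Where they did not, the cause was not tested. With library size alone, *fos-1* gave 0.13 between arms at 24 hpa and -0.050 at 48 over 0 hpa in control RNAi, and EGR-like 1.13 at 48 over 0 hpa in *activin-2* RNAi, no longer called. Without the filter, *fos-1* between arms at 48 hpa was -0.020, and calls appeared for EGR-like between arms at 24 hpa (-0.60) and 48 hpa (0.88) and, in *activin-2* RNAi, at 24 over 0 hpa (0.62), and for *runt-1* at 18 (-0.97) and 48 over 0 hpa (2.05). With DESeq2, EGR-like was called between arms at 48 hpa (0.88) and at 24 over 0 hpa in *activin-2* RNAi (0.64), and lost at 18 over 0 hpa in control RNAi (0.84). With all 12 groups in 1 fit, *fos-1* between arms at 48 hpa was -0.0054, *runt-1* was called in *activin-2* RNAi at 6 (-2.24) and 48 over 0 hpa (2.07), and EGR-like lost its calls at 6 over 0 hpa in *activin-2* RNAi (-1.20) and 48 over 24 hpa in control RNAi (-0.96). With the added choices, *runt-1* between arms at posterior-facing 18 hpa was -0.0088, and the EGR-like span over 0, 6 and 18 hpa was 1.20. Mean levels moved beyond 1 SD under TMM for *fos-1* at 24 hpa (86.1) and *runt-1* at 48 hpa (13.7), both control RNAi.

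Where the replicate number did not meet the rule for pairing, the block added calls for EGR-like. These were between arms at anterior-facing 18 hpa (-0.26), 24 hpa (-0.63) and 48 hpa (0.84), and for the face interaction (1.02). Where the number met the rule, *runt-1* at 48 over 0 hpa in *activin-2* RNAi was 2.23 and was called. The block changed no other call.

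Leaving out each library gave these ranges. Between arms, *runt-1* ran from -0.95 to 0.92 at 0 hpa, -0.072 to 0.33 at 6 hpa and -0.11 to 0.19 at posterior-facing 18 hpa. *fos-1* ran from -0.26 to -0.15 at posterior-facing 18 hpa, -0.16 to 0.063 at 24 hpa and -0.081 to 0.089 at 48 hpa, and EGR-like from -0.95 to -0.37 at 24 hpa and 0.58 to 1.09 at 48 hpa. Interactions ran from -0.033 to 0.12 for *fos-1* with face and 1.22 to 2.22 for *runt-1* with time. In *activin-2* RNAi against 0 hpa, EGR-like ran from -1.37 to -1.13 at 6 hpa, 0.29 to 0.79 at 24 hpa and 0.85 to 1.37 at 48 hpa, and *runt-1* from -1.38 to 0.51 at 18 hpa, -4.25 to -2.35 at 24 hpa and 1.65 to 3.54 at 48 hpa. In control RNAi against 0 hpa, EGR-like ran from -0.54 to 0.14 at 6 hpa, 0.55 to 1.25 at 18 hpa and -0.61 to 0.085 at 24 hpa, and *fos-1* from -0.0022 to 0.16 at 48 hpa. At 24 hpa *runt-1* rested on 3 to 9 reads per library, which limits its comparison between arms.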
